A study of Mus musculus with 5 samples.

Results

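The genes described here encode the proteins of the mitochondrial ribosome, chosen as the probe sets whose single gene symbol was Mrpl or Mrps followed by a number. On the Affymetrix arrays of this series 156 probe sets met that rule and stood for 76 genes, 47 of the large subunit (Mrpl) and 29 of the small subunit (Mrps), of 18193 genes named on the array. Where a gene had several probe sets (42 of 76 genes), the brightest one by its mean over the 5 arrays was taken. All 76 genes had a mean signal of at least 1, the median of each array, so no member was lost to a filter on low values. A further 4 probe sets listed a mitochondrial ribosomal protein together with another gene and were left out.

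RNA came from CD3+CD4+ T cells of the BALB/c background. CXCR6 Hi (n = 2 arrays) and CXCR6 Lo (n = 2 arrays) cells were sorted from the colonic lamina propria (LP) of mice with colitis, induced by moving naive CD4+ T cells with high CD45RB into Rag1-/- recipients, which have no T or B cells of their own. CXCR6 is a chemokine receptor found on activated T cells. The CD45Rb Hi naive group (n = 1 array) was placed in the spleen by one label and in the LP of healthy mice by another. The study's methods give the spleen of BALB/c mice as the source of these naive cells. The labels gave neither ages nor how many mice made up each sample, and the replicates were called biological, so p-values measure the spread between these samples. The study's methods give an age range for the mice, and the times after transfer in its methods and its supplement differ. With 1 naive array, the spread of the naive cells was taken to equal that of the LP arrays.

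The mitochondrial ribosome translates the few messenger RNAs encoded by mitochondrial DNA, all of which specify core subunits of the respiratory chain and the ATP synthase. Its RNAs come from the mitochondrial genome, but every protein of it is encoded in the nucleus, made by the cytosolic ribosome and imported. Part of these proteins have a counterpart in the bacterial ribosome, and the rest were gained in the evolution of the mitochondrion. In T cells, mitochondrial translation is known to be needed for respiration and for sustained proliferation after activation.

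The whole series differed between the LP arrays and the naive array in ways that touch the comparisons below. The signals had been scaled to a median of 1 on every array, but the 75th percentile of all probe sets lay at 7.54 in naive cells and between 4.73 and 5.39 in LP cells, while the 99th percentile lay at 111 and between 144 and 188. The probe set for the dap RNA, which is added at labelling, read 0.191 in naive cells and between 95.5 and 139 in LP cells. Another control probe set, for bioB, differed the other way, at 27.9 in naive cells and between 8.03 and 10.6 in LP cells. The ratio of the 3′ to the 5′ Gapdh probe set is a measure of RNA and cDNA length. It was 2.81 and 3.98 for CXCR6 Hi, 4.19 and 6.96 for CXCR6 Lo and 1.51 for naive cells. Of the T cell markers, 7 of 7 measured were above 1 on every array, and their summed signal was 537 in naive and between 370 and 584 in LP cells. Single T cell genes differed in direction. Cd3e read 86.1 in naive and between 23.2 and 25.1 in LP cells, and Cd5 39.1 and between 64.7 and 107. Summed signals of the other marker lists differed as well. B cell genes (5 of 6 measured) summed to 54.4 in naive and between 2.05 and 2.86 in LP cells, where 4 of the 5 were under 1 on every array. Granulocyte genes (3 of 4) summed to 176 in naive and between 14.97 and 29.3 in LP cells. For macrophage and dendritic cell genes (8 of 8) these sums were 105 and between 264 and 343, for epithelial genes (8 of 8) 11.3 and between 24.5 and 58.1, and for fibroblast and smooth muscle genes (7 of 7) 9.81 and between 94.2 and 152. Some genes ran against the sum of their list. Pax5 read 0.025 in naive and 0.673 to 1.22 in LP cells, and Itgam 0.573 and 0.199 to 0.493. With signals under 1 set to 1, the log2 difference LP minus naive was 0.81 for Csf3r and -0.78 for Col1a1. What part any of these had in the results was not tested, and tissue, activation and labelling cannot be told apart from LP against naive with 1 naive array.

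Promoter sequences of the members the results turn on are shown first. They are the 250 bases before the annotated start, 5′ to 3′ on the strand of the gene, from RefSeq (build GRCm38.p6). Capitals mark matches to the 4 motifs searched on both strands. The motifs were CGCATGCG of NRF1, CCGGAAG of GABPA and other ETS factors, AAGATGGC of YY1 and CACGTG, the E-box of MYC. The ETS and YY1 letters can overlap by the shared AAG. Mrpl34 (chr8:71464676-71464925, plus strand) and Mrpl17 (chr7:105811088-105811337, minus strand) had the largest differences between LP and naive cells of the large subunit. Mrps18b (chr17:35916441-35916690, minus strand) was the small subunit gene with an NRF1 match. Mrpl3 (chr9:105053018-105053267, plus strand) had the highest LP signals relative to naive. The last sequence is the stretch between the start sites of Mrpl46 and Mrps11 (chr7:78783090-78783130, plus strand), 2 members that are transcribed away from each other.
Mrpl34: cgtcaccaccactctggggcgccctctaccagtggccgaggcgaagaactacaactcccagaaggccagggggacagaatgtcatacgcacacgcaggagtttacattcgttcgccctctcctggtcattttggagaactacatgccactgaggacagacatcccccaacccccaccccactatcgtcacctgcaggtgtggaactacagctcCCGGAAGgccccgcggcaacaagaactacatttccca
Mrpl17: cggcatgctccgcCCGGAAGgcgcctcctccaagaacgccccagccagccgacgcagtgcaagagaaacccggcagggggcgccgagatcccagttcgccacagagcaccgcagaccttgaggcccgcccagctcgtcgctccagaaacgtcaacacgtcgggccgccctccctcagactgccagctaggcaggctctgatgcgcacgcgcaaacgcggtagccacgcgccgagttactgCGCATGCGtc
Mrps18b: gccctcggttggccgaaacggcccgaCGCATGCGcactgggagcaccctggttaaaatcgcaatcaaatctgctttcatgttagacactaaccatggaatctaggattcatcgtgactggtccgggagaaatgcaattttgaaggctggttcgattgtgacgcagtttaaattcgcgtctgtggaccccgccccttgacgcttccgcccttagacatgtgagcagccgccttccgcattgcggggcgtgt
Mrpl3: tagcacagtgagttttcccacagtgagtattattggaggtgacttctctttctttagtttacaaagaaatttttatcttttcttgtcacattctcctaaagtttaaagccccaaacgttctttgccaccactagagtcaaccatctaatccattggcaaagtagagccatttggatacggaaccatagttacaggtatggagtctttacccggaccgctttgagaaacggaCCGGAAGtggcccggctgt
Mrpl46-Mrps11: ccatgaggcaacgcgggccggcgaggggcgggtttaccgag

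The ETS match of Mrpl34 began 37 bases and that of Mrpl3 19 bases before the start, and the NRF1 match of Mrpl17 began 10 bases before it. Farther away, the ETS match of Mrpl17 began 237 bases and the NRF1 match of Mrps18b 224 bases before the start. No motif searched was found in the short stretch between Mrpl46 and Mrps11. Windows of 300 bases (250 before to 50 after the start) were at hand for 67 of the 76 members. In these windows Mrps11 held a YY1 match, and Mrps18b an ETS match besides its NRF1 match. The ETS letters were found in 25 of the 67 members (37.3%), against 9.93% of 27025 genes with a window and 21.2% of the 8873 such genes at or above the 40th percentile of mean signal. The YY1 letters were found in 12 members (17.9%, against 3.19% and 5.54%) and the NRF1 letters in 7 (10.4%, against 2.07% and 4.5%). By contrast the E-box of MYC was in 5 members (7.46%, against 8.09% and 11.9%). In all, 37 of the 67 members held an NRF1, ETS or YY1 match. ETS letters stood in 15 of 38 members that were lower in LP cells (39.5%) and in 10 of 29 that did not pass (34.5%). YY1 letters stood in 9 of 38 (23.7%) and in 3 of 29 (10.3%). These matches describe the sequence only.

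Transcripts of the mitochondrial ribosome were lower in LP T cells than in naive T cells. With the signals as deposited, 42 of 76 members (55.3%) were lower in the 4 LP arrays than in the naive array at an adjusted p under 0.05 in limma, and 0 were higher. Over all genes 18.8% were lower and 15.1% higher. In such bulk RNA, fewer cells of a type and less RNA per cell cannot be told apart. The median log2 difference of the members was -1.36, which is 2.56-fold, against -0.14 over all genes. The members' median signal was 10.1 and 12.7 on the CXCR6 Hi arrays, 9.63 and 9.58 on the CXCR6 Lo arrays and 26.005 in naive cells. All 4 LP arrays lay below the naive array in 67 of 76 members, against 40.9% of all genes. They lay above it in 2, Mrpl3 and Mrpl45, against 35% of all genes. With genes under the 40th percentile of mean signal left out of the fit, 59 members were lower and 1 higher, against 40.5% and 22.2% of the 10916 genes kept. Most calls were lost when 1 LP array was left out, which leaves 1 residual degree of freedom in place of 2. The count was 6 without CXCR6 Hi replicate 1 and 10 without CXCR6 Hi replicate 2, all among the 42, against 9.72% and 10.7% of all genes called in either direction. Without either CXCR6 Lo replicate it was 0, as it was over all genes. The members' median difference stayed between -1.27 and -1.46 with 1 LP array left out. At an unadjusted p under 0.05 in limma, 56 members (73.7%) were lower with all arrays, against 26.5% of all genes, and 44 and 49 without CXCR6 Hi replicate 1 or 2 (23.7% and 25.1% of all genes) and 42 without either CXCR6 Lo replicate (22.2% and 22.7%).

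**Figure D1:**
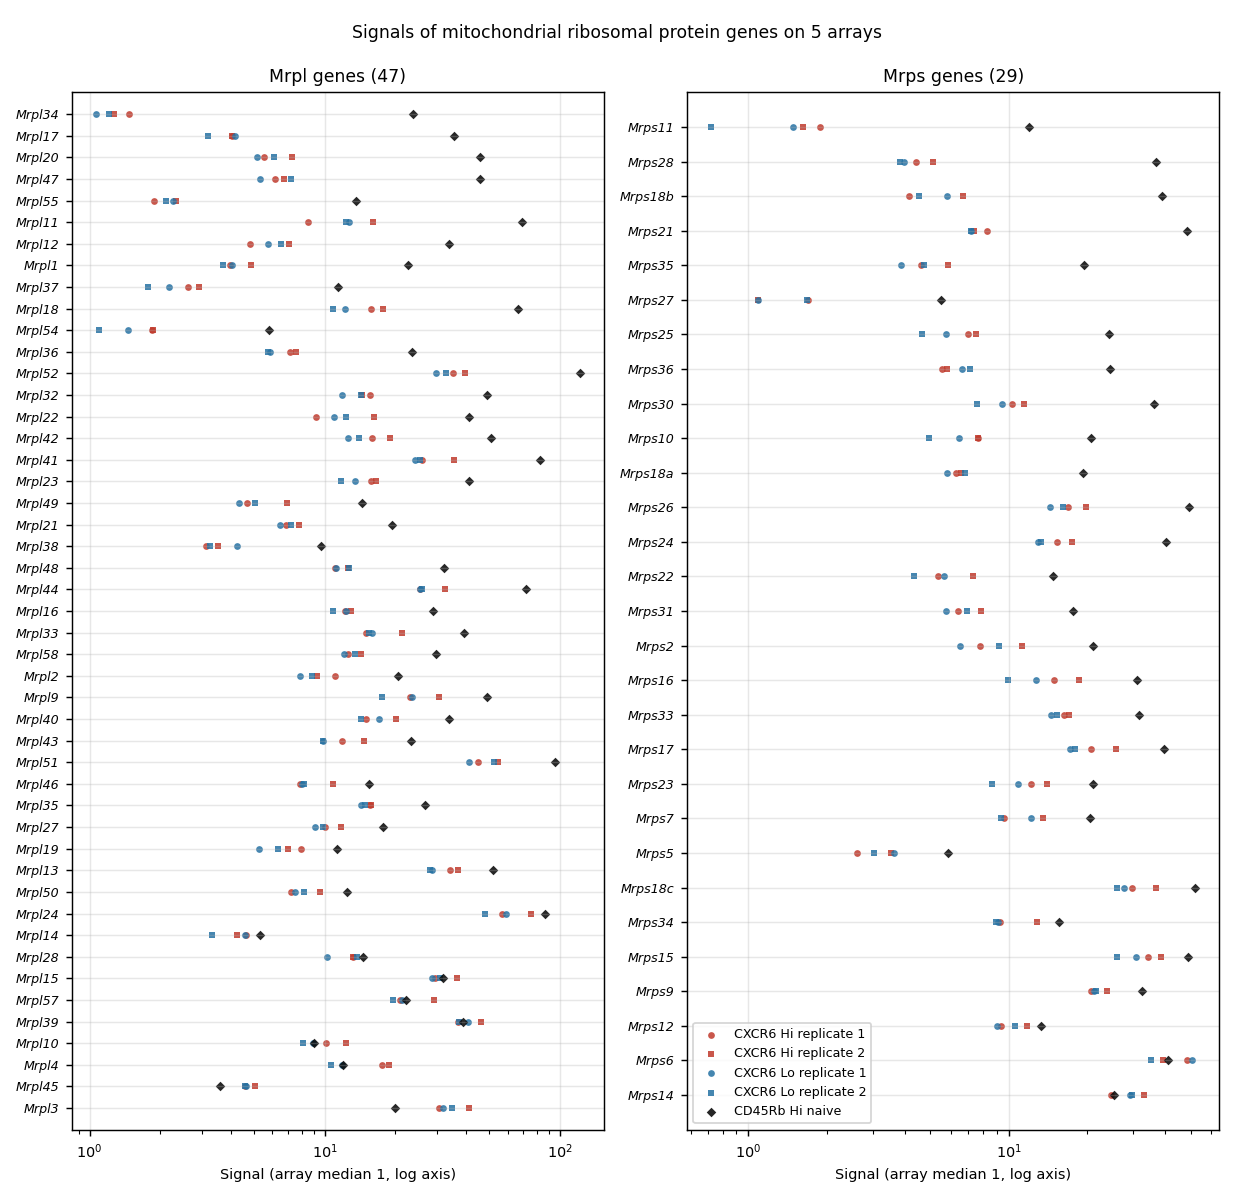
Signal of each member on the 5 arrays (log axis, array median 1), in order of the log2 difference between LP and naive, for the 47 Mrpl genes (left) and the 29 Mrps genes (right). Red is CXCR6 Hi, blue CXCR6 Lo and black diamonds the CD45Rb Hi naive array, which lies to the right of all 4 LP arrays in 67 of 76 members.

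Both subunits held lower members. In the large subunit 26 of 47 genes were lower (median -1.26), and in the small subunit 16 of 29 were (median -1.40), and the difference between the subunits was not tested.

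Mrpl34, named for a small protein of the bacterial large subunit, had the largest difference. Its signals were 1.47 and 1.28 on the CXCR6 Hi arrays, 1.07 and 1.21 on the CXCR6 Lo arrays and 23.7 on the naive array. All 4 LP arrays were thus close to the array median and far below naive, a log2 difference of -4.25 (SE 0.26) with an adjusted p of 0.0119 in limma, or 19.0-fold. Its second probe set had the same direction with a smaller difference, -1.56.

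Mrpl17, the counterpart of a protein at the exit of the bacterial peptide tunnel, read 4.05, 4.04, 4.15 and 3.18 on the LP arrays and 35.5 in naive cells. Here and below the LP values are given as CXCR6 Hi replicates 1 and 2, then CXCR6 Lo replicates 1 and 2. The LP arrays lay within a narrow range, 9.27-fold under naive (log2 -3.21, SE 0.28, limma adjusted p = 0.0125). Mrpl20, whose bacterial counterpart is needed early in the assembly of the large subunit, read 5.50, 7.25, 5.15 and 6.11 against 45.6 (log2 -2.94). Mrpl47, the homologue of bacterial L29 beside the tunnel exit, read 6.17, 6.73, 5.30 and 7.20 against 45.9 (log2 -2.86). In both genes the subsets overlapped each other, and neither came near the naive array. Mrpl55, which also has a bacterial counterpart, read 1.89, 2.32, 2.26 and 2.11 against 13.6 (log2 -2.67).

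In the small subunit, Mrps11, a protein of the platform that the messenger RNA passes, read 1.89, 1.62, 1.48 and 0.72 in LP cells and 12.0 in naive cells. The second CXCR6 Lo array was the lowest of the LP arrays, and the difference of -3.16 had an SE of 0.50 (limma adjusted p = 0.0232). Mrps28 read 4.40, 5.13, 3.95 and 3.82 against 36.9 (log2 -3.10, SE 0.25). Mrps18b, one of 3 mammalian relatives of bacterial S18, read 4.13, 6.68, 5.80 and 4.52 against 38.9 (log2 -2.91). In all 3 genes every LP array was far below naive. Mrps21 read 8.28, 7.39, 7.15 and 7.14 against 48.3 (log2 -2.69), and Mrps35, which bacteria lack, 4.603, 5.84, 3.86 and 4.74 against 19.5 (log2 -2.05).

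The stalk is the arm of the large subunit that recruits translation factors. Mrpl12, the stalk protein itself, read 4.81, 7.04, 5.72 and 6.55 against 34.0 (log2 -2.51), and Mrpl11, at the base of the stalk, 8.52, 16.037, 12.7 and 12.3 against 69.3 (log2 -2.52). Mrpl1, of the arm across from it, read 3.96, 4.84, 4.05 and 3.69 against 22.6 (log2 -2.46). The first CXCR6 Hi array was the lowest for Mrpl11 and Mrpl12, and all 3 genes passed in limma (adjusted p = 0.0183, 0.0276 and 0.015 for Mrpl12, Mrpl11 and Mrpl1). Mrpl10, which anchors Mrpl12 to the ribosome, did not, at 10.2, 12.3, 8.97 and 8.09 against 8.98 (log2 0.12, limma adjusted p = 0.755, and 0.74 with quantile normalization). The stalk thus held both lower members and one that overlapped with naive. These 4 were chosen after values of the members were seen.

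In 25 of the 34 members that did not pass, all LP arrays were still below naive. Mrpl24, whose probe set was the brightest of the members, read 56.6, 75.7, 59.0 and 48.2 against 86.7 (log2 -0.55, limma adjusted p = 0.248). Mrps15 read 34.4, 38.4, 30.8 and 25.995 against 48.7 (log2 -0.60), and Mrps18c, another relative of bacterial S18, 29.7, 36.7, 27.8 and 26.1 against 52.1 (log2 -0.80). In these 3 genes the LP arrays were under naive by less than 2-fold on average. Brightness depends on the probes, so levels were not compared between genes.

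The LP and naive arrays overlapped in 7 members. They were Mrpl4, Mrpl10, Mrpl15, Mrpl39, Mrpl57, Mrps6 and Mrps14. Mrpl39, for example, read 36.8, 46.2, 40.8 and 37.2 against 38.6, and Mrps14 24.6, 33.2, 29.2 and 29.8 against 25.4. Mrpl3, which reaches towards the peptidyl transferase centre, read 30.7, 41.2, 32.0 and 34.8 in LP cells and 19.9 in naive cells. Every LP array was above naive in this gene (log2 0.79, SE 0.30), but it did not pass with the signals as deposited (limma adjusted p = 0.119). Mrpl45, which lies near the tunnel exit at the inner membrane, read 4.598, 5.06, 4.65 and 4.57 against 3.60 (log2 0.39).

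By the structure of the ribosome rather than by symbol, 45 members have a bacterial counterpart and 30 do not. Mrps30 and Mrps18a belong to the large subunit despite their names. Of the relatives of bacterial S18, Mrps18c was counted as having a counterpart, and Mrps18a and Mrps18b as having none. Mrps36 was left unclassified, since it has been described as a component of the oxoglutarate dehydrogenase complex. In the large subunit, 16 of 29 genes with a bacterial counterpart were lower in LP cells (median -1.26) and 12 of 20 without one (median -1.42). In the small subunit the counts were 5 of 16 (median -0.93) and 8 of 10 (median -1.49). The small subunit genes with a bacterial counterpart were thus the class with the lowest share, and no test of this difference was made.

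Quantile normalization, which gives all 5 arrays the same distribution of signals, reduced the differences but not their direction for most members. Of the 76 members 29 were then lower and 1 higher in LP cells, against 12.7% and 15.2% of all genes. The median was -0.78 (-0.84 for the large and -0.77 for the small subunit), against -0.00395 over all genes. Both scales called 28 members lower, 14 were lower as deposited only (8 large, 6 small), and Mrpl51 was lower with quantile normalization only. All 4 LP arrays remained below the naive array in 60 members, against 36.7% of all genes, and were above it in 11, against 37.6%. Centring each array on the median of its gene values, which moved the median over all genes to 0.41, left 25 members lower and 2 higher, with a median of -0.81. That scale called 12% of all genes lower and 23.8% higher.

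The 14 calls lost with quantile normalization were for differences of -1.004 to -2.02 as deposited, a range in which other calls were kept. Mrps27, a pentatricopeptide repeat protein of the small subunit, read 1.695, 1.09, 1.09 and 1.68 against 5.51. Its log2 difference was -2.02 as deposited (limma adjusted p = 0.0406) and -1.54 with quantile normalization (adjusted p = 0.0949). Mrpl22, at the peptide tunnel, went from -1.79 to -1.36 (limma adjusted p = 0.0468 and 0.0734), and Mrps10 from -1.66 to -1.05 (0.0263 and 0.064). Mrps18a, Mrpl49, Mrpl21, Mrpl38 and Mrpl48, at -1.44 to -1.60 as deposited, were at -0.84 to -0.98 with quantile normalization. Each of these kept a negative difference, and what was lost was the call. Mrpl51 passed only then (log2 -1.25, limma adjusted p = 0.0473), as did Mrpl3 as the sole member higher in LP cells (log2 1.36, adjusted p = 0.0359). A sign change was seen in 5 members, Mrpl14, Mrpl15, Mrpl28, Mrpl50 and Mrps12, none of which passed on either scale.

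**Figure D2:**
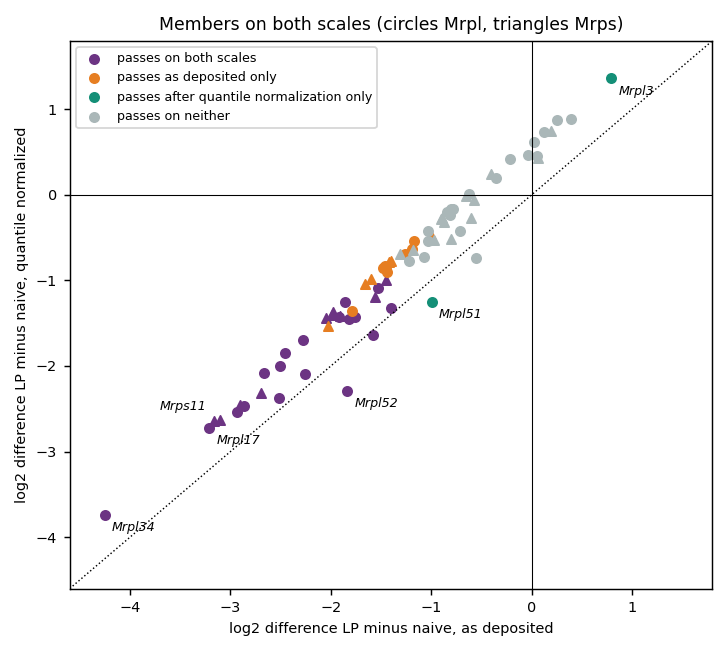
log2 difference between LP and naive for each member with the signals as deposited (x) and after quantile normalization (y). Circles are Mrpl and triangles Mrps genes, the dotted line is equality, and most points lie above it and below 0, with 28 members lower on both scales.

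The calls depended on which probe set stood for a gene in a minority of members. The members had 80 further probe sets, of which 56 (for 32 genes) averaged 1 or more. Of these, 38 had the same direction as the brightest probe set and 18 the opposite. For genes that passed, 18 of 21 had the same direction. Mrpl52, which bacteria lack, had 4 probe sets of the same direction. Its brightest probe set read 35.1, 39.6, 29.9 and 32.8 against 122 (log2 -1.84), and the others gave -2.73, -3.19 and -4.17.

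A further probe set differed in the opposite direction by at least 1 in 8 members, Mrpl13, Mrpl15, Mrpl21, Mrpl28, Mrpl38, Mrpl57, Mrps6 and Mrps15. Mrpl28 read 13.2, 13.2, 10.3 and 13.8 against 14.6 by its brightest probe set (log2 -0.22). A second probe set of it read 11.7, 9.08, 9.501 and 13.2 against 1.42 (log2 2.91), and the last 3.71, 5.34, 4.09 and 6.20 against 17.2 (log2 -1.86). One gene thus gave no difference, a higher and a lower LP value, depending on the probes. Mrpl13 gave -0.71, -1.24, -1.98 and 2.47 by its 4 probe sets. For Mrps6 the brightest probe set was at 0.06 and the other at -1.98, and for Mrpl57 they were at 0.02 and -2.64. Mrpl21 and Mrpl38, which passed by their brightest probe set, had others at 1.82 and 1.94. For Mrpl3 the other 3 probe sets were at -0.60, -0.79 and -0.23, against 0.79 for the brightest.

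**Figure D3:**
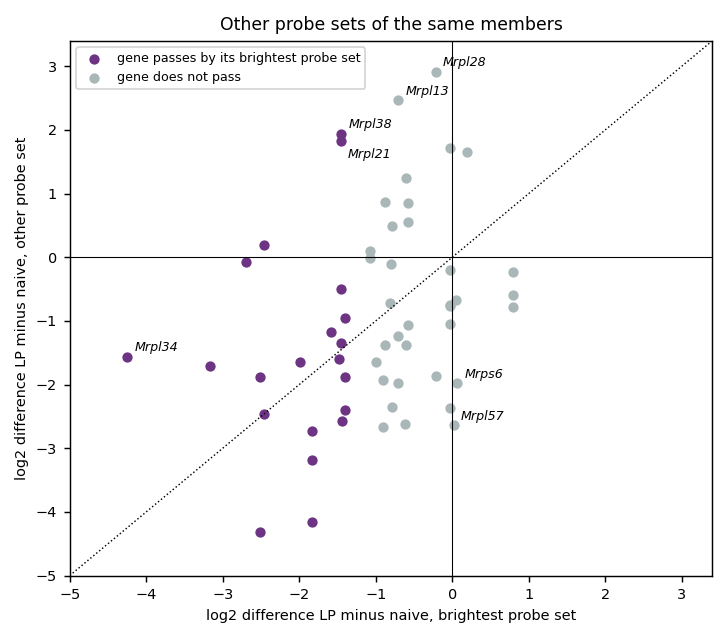
log2 difference between LP and naive of the members' other probe sets that averaged 1 or more (y, 56 points) against that of the brightest probe set of the same gene (x). Purple points belong to genes that passed by the brightest probe set, 18 of 21 of which lie below 0 on the y axis, and the dotted line is equality.

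Each LP subset was also set against naive on its own, with the naive array shared by both comparisons. In CXCR6 Hi cells 33 of 76 members were lower (15.3% of all genes) with a median of -1.22. In CXCR6 Lo cells 38 were lower (16.7% of all genes) with a median of -1.44. No member was higher in either, against 13.2% and 12.8% of all genes. The lower members were the same in 32 cases. Mrpl38 passed in CXCR6 Hi cells only, and Mrpl2, Mrpl41, Mrpl49, Mrpl58, Mrps16 and Mrps31 in CXCR6 Lo cells only. Their adjusted p-values in the other subset were 0.0508 to 0.126 in limma, and none of these 7 genes passed between the subsets. Mrpl58, a peptidyl-tRNA hydrolase that frees stalled ribosomes, read 12.5 and 14.3 in CXCR6 Hi, 12.1 and 13.5 in CXCR6 Lo and 29.9 in naive cells. The subsets overlapped in that gene. With quantile normalization 21 members were lower and 0 higher in CXCR6 Hi cells, against 10.4% and 12.5% of all genes, and 27 were lower and 1 higher in CXCR6 Lo cells, against 10.1% and 12.8%. Without any 1 of the 4 LP arrays, 0 members and 0 of all genes passed in either subset in limma. At an unadjusted p under 0.05, 36 to 49 members were then lower, against 19.3% to 24.1% of all genes.

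Between the subsets no member passed. In limma 0 of 76 members and 0% of all genes were called, and 1 member was under an unadjusted p of 0.05, against 6.55% of all genes. The median difference CXCR6 Hi minus CXCR6 Lo was 0.19 as deposited, against 0.08 over all genes, and 0.03 with quantile normalization, against -0.04. Both CXCR6 Hi arrays lay above both CXCR6 Lo arrays in 33 members (25.1% of all genes), and the reverse held in 1 (14.3%). With quantile normalization these were 21 (17.5%) and 8 (21.1%). The 3′ to 5′ Gapdh ratio also separated the subsets, at 2.81 and 3.98 for CXCR6 Hi and 4.19 and 6.96 for CXCR6 Lo. Its part in this order was not tested. The second CXCR6 Hi array was above the first in 64 of 76 members, by a median of 0.23. The median over the members was 0.35 without CXCR6 Hi replicate 1.

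Mrpl4 was the member under an unadjusted p of 0.05. It read 17.5 and 18.8 on the CXCR6 Hi arrays, 11.9 and 10.6 on the CXCR6 Lo arrays and 12.0 on the naive array. The CXCR6 Hi arrays were both above the other 3, by a log2 of 0.69 over CXCR6 Lo (SE 0.22, adjusted p = 0.737 in limma), and by 0.50 with quantile normalization. Mrpl18 read 15.8 and 17.8 in CXCR6 Hi, 12.2 and 10.9 in CXCR6 Lo and 66.5 in naive cells, so that both subsets stayed far below naive. Mrpl54 read 1.85, 1.87, 1.46 and 1.10 against 5.80, and Mrps16 14.9, 18.6, 12.8 and 9.93 against 31.1. Mrps25 read 6.96, 7.49, 5.76 and 4.65 against 24.3, and Mrps23 12.2, 14.1, 10.8 and 8.63 against 21.05. In all 5 of these genes the CXCR6 Hi arrays were the higher by a log2 of 0.44 to 0.56, with adjusted p-values of 0.761 to 0.797 in limma. Mrps36 was the exception, at 5.53 and 5.82 in CXCR6 Hi, 6.62 and 7.08 in CXCR6 Lo and 24.5 in naive cells (log2 -0.27 between the subsets).

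**Figure D4:**
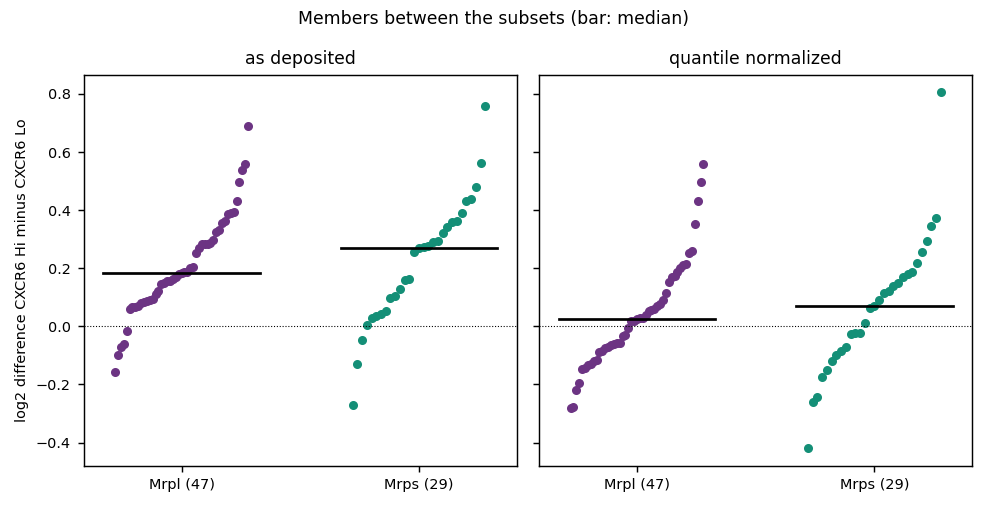
log2 difference CXCR6 Hi minus CXCR6 Lo of the 47 Mrpl and 29 Mrps genes, as deposited (left) and quantile normalized (right), with each gene a point and the median a bar. Most points lie above 0 as deposited, and they spread to both sides of 0 after quantile normalization. The medians over all 76 members are 0.19 and 0.03.

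Other proteins of mitochondrial gene expression were examined as lists beside the members. The counts of these lists stand against 18.8% lower and 15.1% higher over all genes as deposited. Of 5 measured genes for mitoribosome subunits with other names or for its membrane partner 3 were lower and 0 higher. They were Dap3, a GTP-binding small subunit protein (10.7, 11.6, 11.48 and 12.1 against 46.5, log2 -2.02), Ptcd3 (log2 -2.47) and Gadd45gip1 (log2 -1.60). Chchd1 (log2 -0.26) and Oxa1l, the insertase of the inner membrane that binds the ribosome (log2 -0.90), did not pass. Of 24 genes for assembly and rRNA modification 11 were lower and 1 higher. Noa1, a GTPase of small subunit assembly, read 5.36, 5.76, 3.896 and 5.22 against 34.7 (log2 -2.79), and Mrm1, a methyltransferase of the large rRNA, was at -2.58. Nsun4, which methylates the small rRNA and takes part in joining the subunits, was higher, at 12.0, 11.4, 13.8 and 14.8 against 1.803 (log2 2.84, SE 0.24, limma adjusted p = 0.0122).

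Of 13 translation factors 5 were lower and 0 higher. Mtfmt, which formylates the initiator methionyl-tRNA, read 3.77, 3.69, 3.75 and 3.56 against 20.1 (log2 -2.44), and Gatb, a subunit of the amidotransferase that makes glutaminyl-tRNA, 1.01, 0.259, 0.121 and 0.087 against 5.63. Of the LP signals of Gatb 3 were under the array median of 1, where a signal was not shown to be above background, and with signals under 1 set to 1 the difference was 5.61-fold. The elongation factor Tufm did not pass (11.501, 12.8, 9.43 and 10.4 against 20.1, log2 -0.87, limma adjusted p = 0.0704). Of 16 mitochondrial aminoacyl-tRNA synthetases 5 were lower, among them Mars2 (6.09 in naive cells and under 1 on all 4 LP arrays) and Yars2 (3.73, 4.27, 4.32 and 5.06 against 37.8, log2 -3.13), and 0 were higher. Of 19 genes of mitochondrial transcription, RNA and DNA 9 were lower, with Prorp, the nuclease of mitochondrial RNase P (log2 -2.23), and the RNA polymerase Polrmt (log2 -2.18) the lowest. The one that was higher was Polg2, the accessory subunit of the DNA polymerase, at 126, 136, 130 and 119 against 11.4 (log2 3.48).

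The respiratory chain subunits and the cytosolic ribosomal proteins had other values. Of 82 respiratory chain subunits 17 were lower and 7 higher (median -0.06), and with quantile normalization 16 and 9 (median -0.15). Of 49 cytosolic ribosomal proteins 9 were lower and 12 higher (median 0.73). With quantile normalization 8 were lower and 3 higher (median -0.15), so the direction of that median turned with the scale. Over all genes 18.8% were lower and 15.1% higher as deposited, and 12.7% and 15.2% with quantile normalization. The medians of both Mrpl and Mrps genes were below those of both lists on each scale. The median signals of the cytosolic ribosomal proteins were 151 in naive cells and between 185 and 252 in LP cells, in the bright range where the arrays' distributions differed the other way. No test between lists was made.

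**Figure D5:**
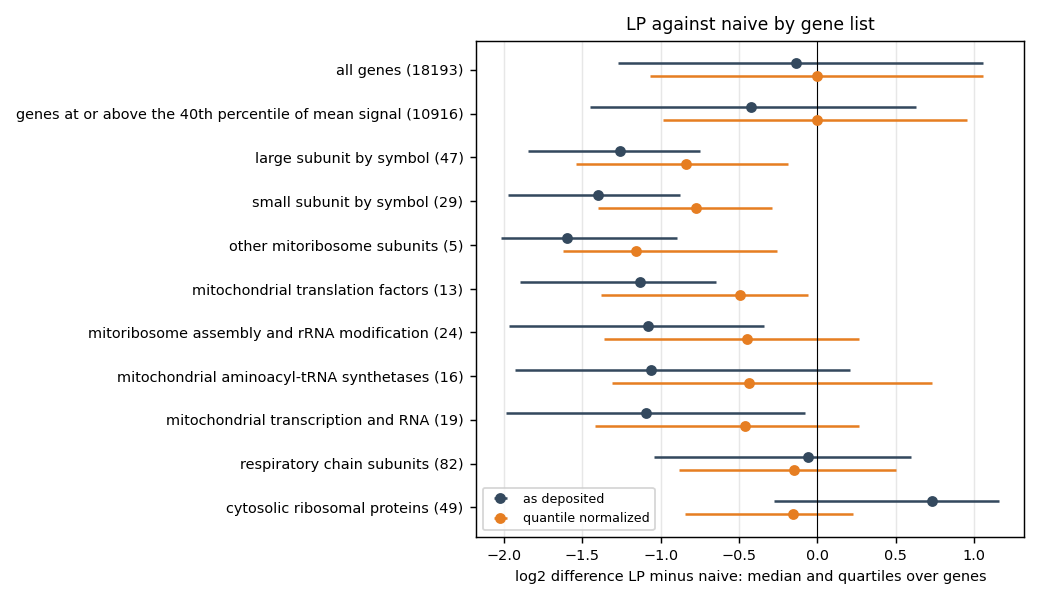
Median (point) and quartiles (bar) over genes of the log2 difference between LP and naive for each list, with the number of genes measured, as deposited (dark) and quantile normalized (orange). The Mrpl and Mrps genes lie at -1.26 and -1.40 as deposited, below the respiratory chain subunits (-0.06) and the cytosolic ribosomal proteins (0.73).

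The transcription factors known to act on nuclear genes for mitochondria did not share one direction, with 3 of 11 lower and 2 higher. The shares over all genes were 18.8% and 15.1%. Nrf1 read 12.1, 14.1, 10.6 and 13.2 against 7.39 (log2 0.75, limma adjusted p = 0.119), and Gabpa 26.1, 33.6, 27.5 and 28.99 against 20.5 (log2 0.50). Both passed as higher only with quantile normalization (limma adjusted p = 0.0376 and 0.0469). Gabpb1, the partner of Gabpa, was higher on both scales, at 24.2, 31.5, 21.6 and 18.4 against 5.72 (log2 2.04). Yy1 did not pass on either scale (log2 0.52). Myc was lower as deposited (5.40, 3.95, 5.57 and 4.11 against 15.1, log2 -1.68), but not with quantile normalization (limma adjusted p = 0.115). Its partner Max was lower on both (2.12, 1.01, 0.173 and 0.556 against 60.3, or 49.9-fold with signals under 1 set to 1). Mycn was higher on both, at 1.44 to 1.93 in LP cells against 0.029 in naive cells. That naive signal was under 1, where a signal was not shown to be above background, and the LP signals were close to 1. The size of the Mycn difference is therefore uncertain.

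Many members lie head to head with another gene. Of the 67 members with a window, 22 (32.8%) had the start of a gene on the other strand within 500 bases and transcribed away from it, against 10.9% of all genes with a window and 17.9% of those at or above the 40th percentile of mean signal. These 22 members formed 21 pairs with their neighbours. Both genes of a pair were below 0 in the LP against naive difference in 14 pairs and on opposite sides of 0 in 7, and the differences were within 1 of each other on the log2 scale in 11. At least 1 gene was lower in limma in 15 pairs, and both were in 1, Mrpl37 with Cyb5rl. Cyb5rl read 0.113, 0.076, 0.137 and 0.039 against 1.23, so its LP signals were not shown to be above background. Neighbours such as Ighmbp2 and Tmem63b were also near or under 1. The same counts were not made for head-to-head pairs of other genes. Pairs with unlike values are given here as examples. Mrps11 and Mrpl46, whose starts are 42 bases apart, differed between LP and naive by -3.16 and -0.84, and only the first passed. Mrpl46 read 7.82, 10.8, 7.999 and 8.18 against 15.5. Mrpl18 was at -2.26, and its neighbour Tcp1, a subunit of the cytosolic chaperonin, read 142, 161, 141 and 117 against 87.5 (log2 0.67). Mrpl47 was at -2.86 and Ndufb5, a subunit of complex I, at -0.18 (61.8, 88.2, 69.0 and 62.9 against 79.3). For Mrpl43 (log2 -1.03) and Twnk, the mitochondrial DNA helicase, the neighbour was the lower (3.84, 3.42, 3.93 and 3.60 against 14.7, log2 -1.99, limma adjusted p = 0.0169). These pairs were chosen after their values were seen.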

How the data were processed

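RNA of 5 samples was measured on Affymetrix mouse expression arrays. The values deposited by the authors were linear intensity values, and the median of every array was 1. The submitters' processing notes name RMA, and the study's methods name GeneSpring. How this scale was reached is not stated in either. Of 45101 probe sets 34945 had 1 gene symbol in the platform annotation (932 several, 9211 none). After 13 control probe sets were left out, the brightest probe set of each gene was kept (18193 genes), 2 signals of 0 were set to 0.001 and log2 was taken. The groups were fitted together over all 5 arrays with limma 3.58.1 in R 4.3.3 (moderated two-sided tests). Adjustment by Benjamini-Hochberg covered all 18193 genes, and calls were made under 0.05. The number of arrays limits the precision. Other settings were quantile normalization, gene-level centring, other probe set rules, a filter at the 40th percentile, log2(signal + 1), a floor at 1, a trended and robust prior, the replicate number as a block, each LP array left out, a fold of at least 2 and the methods' t-test. Members, lists, tests and motifs were chosen with earlier results of these data known. Genes were named by size of difference, brightness, order of the subsets, change with quantile normalization or opposite probe sets, and the other members described were chosen after their values were seen. Replicate numbers did not pair the subsets by any label. The model fit was tested on simulated data.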

Additional observations from a re-analysis of the deposited data

Results flagged for a closer look

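With the signals as deposited, Mrpl4 and Mrpl10 lay on opposite sides of the naive array in the 2 subsets. For Mrpl4 both CXCR6 Hi arrays were above the naive array and both CXCR6 Lo arrays below it, with a log2 difference between the subsets of 0.69. CXCR6 Lo replicate 1 was close to naive in this gene, at 11.9 against 12.0. For Mrpl10 the signals were 10.2 and 12.3 in CXCR6 Hi, 8.97 and 8.09 in CXCR6 Lo and 8.98 in naive cells, a difference of 0.39. With quantile normalization all 4 LP arrays of both genes lay above the naive array, by a log2 of 0.63 for CXCR6 Lo in each gene. The opposite sides themselves were not tested, and in the comparison of the subsets neither gene passed in limma (adjusted p = 0.737 and 0.803).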

How the results depend on the processing

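The 42 calls of LP against naive became 27 with gene-level centring, 17 with the replicate block, 5 with the methods' t-test, and 0 to 10 without 1 LP array, which leaves 1 residual degree of freedom. The other settings gave 29 to 62, and all calls but at most 2 were lower. For CXCR6 Hi against naive (33) the counts were 21 with quantile normalization, 19 with gene-level centring, 52 with the filter, 54 with log2(signal + 1), 56 with the trended prior, and 0 with the replicate block, the methods' t-test or any LP array left out. For CXCR6 Lo against naive (38) they were 24, 58, 59, 61 and 0 with gene-level centring, the filter, log2(signal + 1), the trended prior and each of those last settings. Only a number is shared by same-numbered arrays (correlation of deviations 0.0193 over all genes, 0.0241 over the members), so the replicate block was not used elsewhere. The subsets had 0 calls under every setting, with 0 to 6 members at an unadjusted p under 0.05. The median of the large subunit was -0.84 with quantile normalization, -0.71 with gene-level centring and -1.03 with the mean of probe sets, and that of the small subunit -0.77, -0.85 and -1.04. The median between the subsets was 0.0281 with quantile normalization and 0.10 to 0.35 without 1 LP array. Among the members named by the rules above, signs that turned belonged to those that did not pass, apart from Mrpl21. It was at 0.0167 with the mean of probe sets. Mrpl58 passed but was not named by those rules. Its brightest probe set was at -1.19 and its other, which averaged under 1, at 1.51, so their mean was above 0. Mrpl15 was at 0.46 with quantile normalization, 0.52 with gene-level centring and between -0.109 and 0.0422 without an LP array. Mrpl28 was at 0.42, 0.33 and 0.28 with quantile normalization, gene-level centring and the mean of probe sets. Mrpl57 was at -1.31 with the mean of probe sets and between -0.098 and 0.141 without an LP array. Mrps6 was at -0.96 with that mean, -1.98 without probe sets shared between transcripts, and between -0.0662 and 0.192 without an LP array. Between the subsets, Mrpl54 was at -0.50 and Mrps25 at -0.083 with the mean of probe sets. The cause of these changes was not tested.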
